A study of Mus musculus with 6 samples.

Results

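The genes described here are those of the tumour necrosis factor (TNF) superfamily of ligands and of its receptor superfamily, measured in haematopoietic stem cells (HSC) that were sorted from mouse bone marrow. They were taken by symbol from the platform annotation: every gene whose symbol is Tnfsf or Tnfrsf followed by a number, and Tnf, Lta, Ltb, Ltbr, Cd27, Cd40, Cd40lg, Cd70, Fasl, Ngfr and Eda2r. This gave 38 of the 18186 genes with a probe set of their own, on 62 of 44991 probe sets. Of the 38, 13 encode ligands and 24 encode receptors, and 1, Tnfsf13os, is an RNA from the opposite strand of the Tnfsf13 locus that the symbol rule also takes. Tnfsf12 and Tnfsf13 shared probe sets annotated with several symbols and, like Tnfsf15, Tnfsf18 and Tnfrsf26, are not analysed here. The series compared HSC of PU.1 knockdown mice with HSC of wildtype mice, each group on 3 Affymetrix Mouse Genome 430 2.0 arrays, with RNA pooled from 3 animals on each array. The sources used here do not state how PU.1 was reduced, the surface markers of the sort, or the strain and age of the mice.

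TNF superfamily ligands are mostly membrane proteins that act as trimers, some of them released by proteases, and each binds one or a few receptors with cysteine-rich extracellular repeats. The receptors signal through TRAF adaptors to NF-kB and MAP kinases, or, where they carry a death domain, can recruit FADD and caspase-8 and kill the cell. In bone marrow the family is known for the survival of B cells (BAFF and APRIL), the costimulation of lymphocytes (CD27, CD40), the formation of osteoclasts (RANK), and inflammatory signals that reach stem cells (TNF). PU.1 is the product of Spi1, a transcription factor with an ETS domain that guides myeloid and B lymphoid development.

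Spi1 was measured at deposited intensities of 362, 360.4 and 119 in knockdown pools 1, 2 and 3, against 1120.0, 718 and 1053 in wildtype pools 1, 2 and 3, with no overlap and with knockdown pool 3 lowest. Differences throughout are knockdown minus wildtype on the scale log2(intensity + 16) after quantile normalisation, where the Spi1 difference was -1.76 (SE 0.43, limma adjusted p = 0.503, 95% interval -2.76 to -0.77). Of the 9 stem and progenitor markers listed, 7 were measured, among them Kit, Cd34, Procr and Hlf. The means of all 7 exceeded the array-wide median, as did those of 12009 of all 18186 genes. In the knockdown pools 5 of the 7 were lower, with differences of -0.82 to 0.28 and a median of -0.14. Neutrophil markers gave signal too, and the 6 summed to intensities of 31787 to 40010 in knockdown pools, against 14484 to 37615 in wildtype pools. The 7 stem and progenitor markers summed to 6582 to 7838 in knockdown pools, against 6222 to 12368 in wildtype pools. Array medians ran from 81.4 to 91.5, and correlations between arrays from 0.955 to 0.979. Across the 44991 probe sets, the limma fit gave 0 with a Benjamini-Hochberg adjusted p under 0.05, which is 0%, and 3200 with an unadjusted p under 0.05.

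The TNF superfamily genes were evenly divided in direction, and, on the probe set of highest mean log2 value that stands for each gene, the 4 differences of largest size were all lower in the knockdown pools. Another probe set of Tnfsf13b, 1460255_at, differed by 1.94, more than any of these in size. Of the 38 genes, the knockdown mean was lower for 19 and higher for 19, beside 46.6% lower among all genes, and the median difference was -0.016, beside 0.018 for all genes. On the probe set that stands for each gene, 5 genes were lower at an unadjusted limma p under 0.05, or 13.2% of the members, where 3.52% of all genes were. At this threshold 0 were higher, where 4.1% of all genes were. In both directions together, 7.63% of all genes had such a p. The 5 were Tnfrsf13c, Tnfrsf13b, Tnfrsf17, Ltb and Tnfrsf1a. The same 5 were the genes whose groups did not overlap with the knockdown pools lower, again 13.2% of the members, where 5.39% of all genes behaved so. Groups did not overlap with the knockdown pools higher for Tnfrsf11a, Tnfrsf22 and Tnfsf13b, or 7.89% of the members, where the share of all genes was 8.42%. In the deposited intensities the groups of all 3 overlapped. Together these made 8 members, or 21.1%, beside 13.8% of all genes. Among all 62 member probe sets, 3 were higher at an unadjusted limma p under 0.05, or 4.84%, where 3.78% of all probe sets were. They were 1460255_at of Tnfsf13b and 1439680_at and 1420412_at of Tnfsf10. Another 7 were lower, or 11.3%, where 3.33% of all probe sets were, with 1449473_s_at of Cd40 and 1442123_at of Tnfsf13os beside those of the 5 genes. On the probe sets that stand for the genes, Tnfsf10 and Tnfrsf18 had higher values with an unadjusted limma p under 0.05 once wildtype pool 2 was left out, as Tnfrsf14 did without wildtype pool 1 and Tnfsf13os without knockdown pool 1. None of the 38 genes passed after adjustment over all probe sets, and the smallest adjusted p was 0.426 in limma. With 3 pools against 3, an exact permutation test of a single gene cannot go below p = 0.1, the value it gave for each gene whose groups did not overlap. Tests measure the spread between pools of animals, and whether fewer cells of a type or less RNA per cell lies behind a lower value cannot be told apart.

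**Figure D1:**
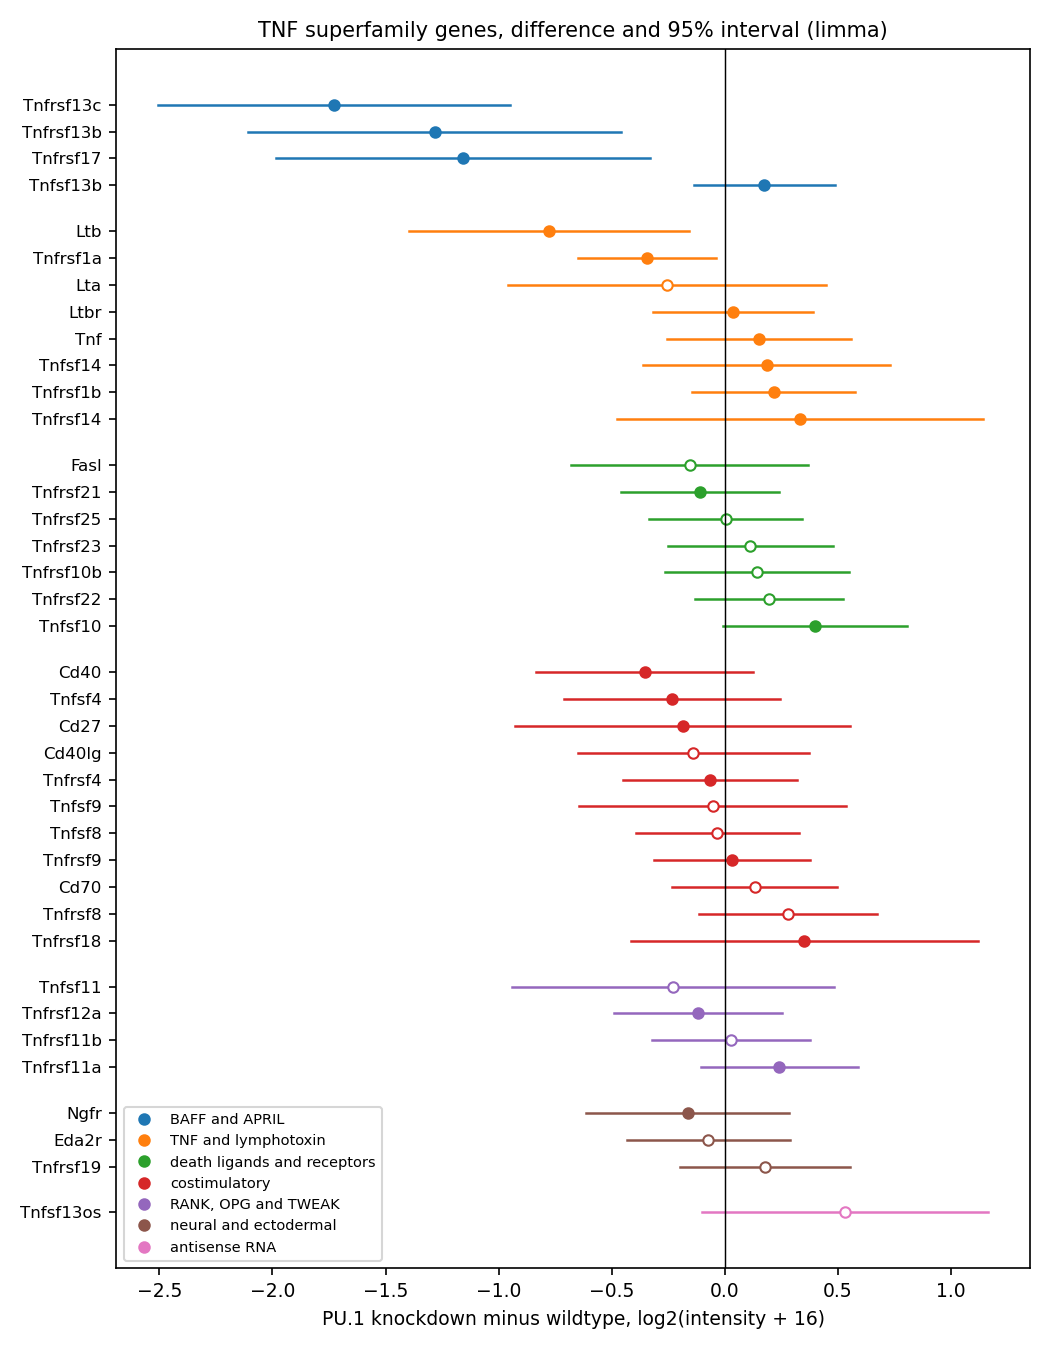
Difference of each TNF superfamily gene, PU.1 knockdown minus wildtype, on the log2(intensity + 16) scale (horizontal axis), with bars for the 95% interval of the limma fit over 3 pools per group; filled points are genes whose mean exceeds the array-wide median. Tnfrsf13c, Tnfrsf13b, Tnfrsf17, Ltb and Tnfrsf1a have intervals wholly below 0, and no interval lies wholly above 0.

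The windows upstream of these 5 genes are shown because these genes had lower values in pools with less Spi1 signal. They are the 250 bases before the annotated start of each gene in RefSeq, build GRCm38.p6, written 5′ to 3′ on the strand of the gene. They lie at chr15:82224381-82224630 (minus strand) for Tnfrsf13c, and on the plus strand at chr11:61126505-61126754 for Tnfrsf13b, chr16:11313559-11313808 for Tnfrsf17, chr17:35194257-35194506 for Ltb and chr6:125349473-125349722 for Tnfrsf1a. Capitals mark matches, on either strand, to AGGAAGT or GAGGAA (cores of the kind PU.1 binds, whose matches can overlap each other), to the AP-1 motif TGANTCA, or to the kappaB consensus.
Tnfrsf13c: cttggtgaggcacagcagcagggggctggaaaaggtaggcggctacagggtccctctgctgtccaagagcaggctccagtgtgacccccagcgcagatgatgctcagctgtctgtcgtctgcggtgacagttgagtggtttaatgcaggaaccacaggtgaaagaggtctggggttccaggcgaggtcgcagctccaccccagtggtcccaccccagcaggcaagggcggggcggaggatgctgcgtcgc
Tnfrsf13b: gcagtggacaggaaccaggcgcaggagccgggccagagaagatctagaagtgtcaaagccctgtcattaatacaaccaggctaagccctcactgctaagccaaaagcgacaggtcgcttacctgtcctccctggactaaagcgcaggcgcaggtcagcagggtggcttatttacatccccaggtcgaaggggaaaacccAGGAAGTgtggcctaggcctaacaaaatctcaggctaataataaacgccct
Tnfrsf17: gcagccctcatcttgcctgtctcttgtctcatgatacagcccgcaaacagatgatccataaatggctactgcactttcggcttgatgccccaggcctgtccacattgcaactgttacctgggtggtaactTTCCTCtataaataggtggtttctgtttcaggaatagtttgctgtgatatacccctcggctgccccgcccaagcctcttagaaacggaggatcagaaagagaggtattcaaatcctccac
Ltb: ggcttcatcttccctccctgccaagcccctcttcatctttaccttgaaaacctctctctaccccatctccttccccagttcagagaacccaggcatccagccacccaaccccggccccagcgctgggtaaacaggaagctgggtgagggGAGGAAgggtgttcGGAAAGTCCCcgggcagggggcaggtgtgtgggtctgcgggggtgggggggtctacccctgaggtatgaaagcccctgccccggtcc
Tnfrsf1a: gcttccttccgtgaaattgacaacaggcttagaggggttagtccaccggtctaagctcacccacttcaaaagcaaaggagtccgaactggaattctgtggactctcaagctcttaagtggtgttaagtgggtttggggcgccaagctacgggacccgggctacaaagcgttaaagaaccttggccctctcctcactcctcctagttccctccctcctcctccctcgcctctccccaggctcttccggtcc

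AGGAAGT was found in the window of Tnfrsf13b, 51 to 45 bases before the start, and GAGGAA in those of Tnfrsf17, on the opposite strand 120 to 115 bases before it, and Ltb, 101 to 96 bases before it. The Ltb window also held a kappaB match at 87 to 78 bases. The windows of Tnfrsf13c and Tnfrsf1a held none of the motifs searched. A window was found for 29 of the 38 genes, which had 33 windows between them. Members are counted below as genes with a match in any of their windows, and the shares of all are per window. The 2 are therefore not on the same unit, and genes with several windows have more room for a match. AGGAAGT was in the windows of 3 of the 29 (Fasl, Tnf and Tnfrsf13b), beside 7.69% of all 32851 windows in the reference. GAGGAA was in those of 12, beside 23.3% of all windows. TGANTCA was in the windows of 4 genes (Tnfrsf8, Tnfrsf9, Tnfsf13b and Tnfsf14), beside 6.75%, and the kappaB consensus in those of 4 (Ltb, Tnfrsf25, Tnfrsf8 and Tnfrsf9), beside 7.25%. These matches describe the letters of the windows and are not binding data.

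The receptors of the B cell survival factors BAFF and APRIL had the largest differences of the family on the probe sets that stand for the genes, and all 3 were lower in the knockdown pools. Tnfrsf13c, the receptor specific for BAFF on which mature B cells depend, had intensities of 35.2, 75.8 and 25.9 in knockdown pools 1, 2 and 3, against 230.4, 228 and 122 in wildtype pools 1, 2 and 3. Its difference of -1.73 (SE 0.34), with a 95% interval of -2.51 to -0.95, puts the knockdown level at 0.302 of that in wildtype, as a ratio of intensity + 16. The highest knockdown pool stayed below the lowest wildtype pool, and pool 3 was lowest within both groups.

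Tnfrsf13b, which binds both BAFF and APRIL and promotes antibody class switching, had intensities of 447, 492 and 191 in knockdown pools, against 1112, 839.7 and 845 in wildtype pools. Knockdown pool 3 was far below the other arrays, and knockdown pools 1 and 2 were close to each other. The difference was -1.28 (SE 0.36), or 0.411 of the wildtype level, and without knockdown pool 3 it was -0.84. Tnfrsf17, the receptor that binds APRIL best and supports long-lived plasma cells, had intensities of 75.4, 150.4 and 81.4 in knockdown pools, against 420.3, 237 and 160.5 in wildtype pools. Its groups came close, since knockdown pool 2 was just below wildtype pool 3, and the difference was -1.16 (SE 0.36). The limma adjusted p was 0.426 for Tnfrsf13c, 0.553 for Tnfrsf13b and 0.579 for Tnfrsf17, with unadjusted p of 0.000949, 0.00724 and 0.0121. Each of these genes had a single probe set, so none has a second one to compare.

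**Figure D2:**
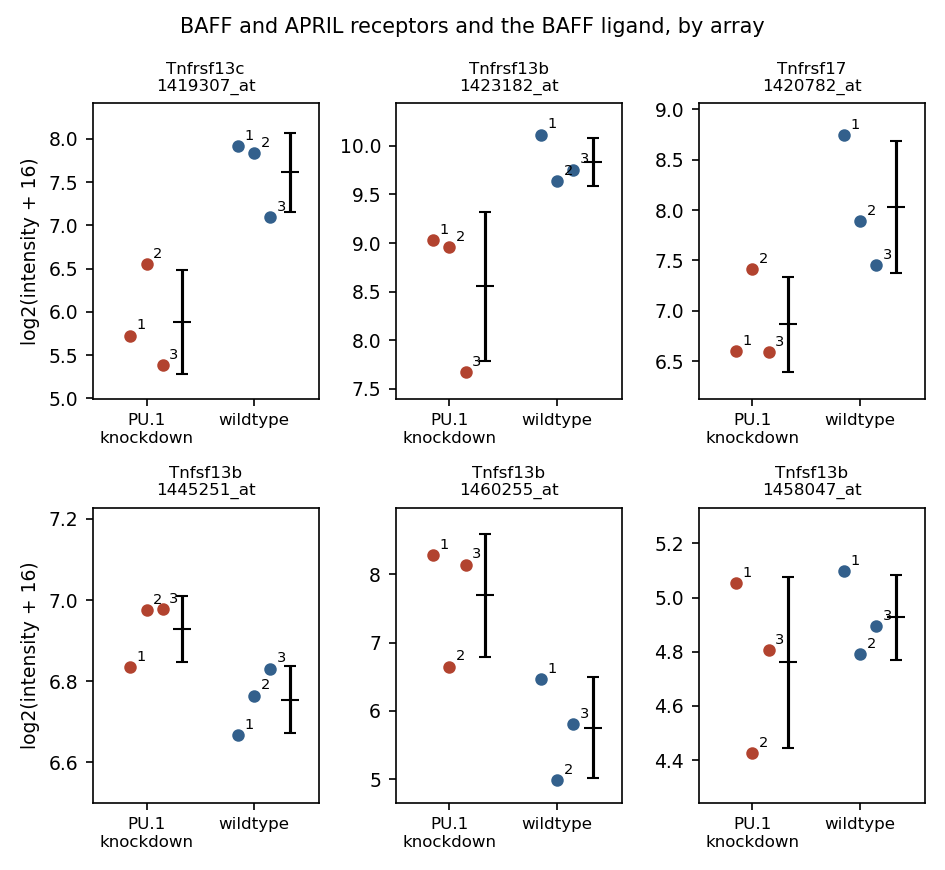
Signal of the 3 BAFF and APRIL receptors (top) and of the 3 probe sets of the BAFF gene Tnfsf13b (bottom) on the log2(intensity + 16) scale after quantile normalisation, with each array as a point numbered by its pool and the mean ± SD of 3 pools as a black bar. Receptors were lower in all knockdown pools, and 1460255_at of Tnfsf13b was higher in all of them, with a difference of 1.94.

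Other B lymphoid genes also had lower values. Of the 7 B lymphoid markers listed, 6 were measured and 5 were lower in the knockdown pools. The B cell receptor subunit gene Cd79b (-1.06, SE 0.31), the adaptor gene Blnk (-1.10, SE 0.27) and Ms4a1, which encodes CD20 (-0.86, SE 0.24), had groups that did not overlap, as was so with lower knockdown values for 5.39% of all genes. Cd79a differed by -0.78 (SE 0.48), and the transcription factor genes Pax5 and Ebf1 by 0.11 (SE 0.18) and -0.055 (SE 0.31). The summed intensity of the 6 markers was 966, 875 and 481 in knockdown pools 1, 2 and 3, against 1992, 1326 and 1191 in wildtype pools 1, 2 and 3, and 0 of them were at the floor in all arrays. Markers of some other cells were lower too, where 46.6% of all genes were. Megakaryocyte and platelet markers were lower in 6 of 6 cases with a median difference of -1.50, and monocyte, macrophage and dendritic markers in 9 of 9 with a median of -0.70. By contrast, T and NK markers were higher in 6 of 7 cases and neutrophil markers in 5 of 6. Erythroid markers were higher in 2 of 3 cases. The mast cell, basophil and eosinophil list was split, with 4 of 6 markers higher and 2 lower. Cpa3 differed by 2.05 and Mcpt8 by 1.71, while Prg2 differed by -3.06 and Epx by -3.69, each without overlap of the groups. No other gene among all 18186 had a difference as low as that of Epx. Knockdown pool 3 had the lowest B lymphoid sum, the lowest Spi1, and the lowest Tnfrsf13b and Tnfrsf13c. Its sum of monocyte, macrophage and dendritic markers was the lowest too, 2981, beside 5668 to 10050 in the other arrays. The lowest intensity of Tnfrsf17 was in knockdown pool 1, 75.4, beside 81.4 in knockdown pool 3. The part of any of these cells or transcripts in the receptor differences was not tested.

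**Figure D3:**
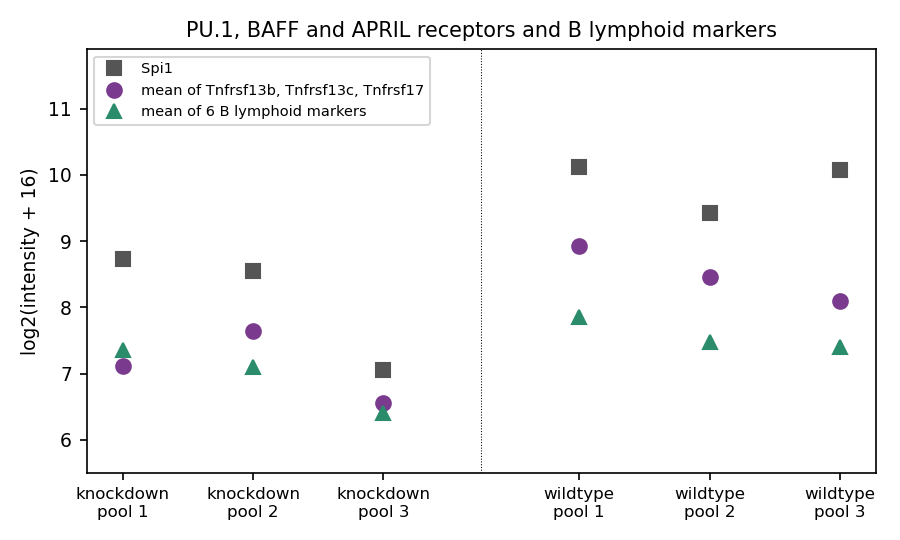
Level in each of the 6 arrays (horizontal axis) of Spi1 (squares), of the mean of Tnfrsf13b, Tnfrsf13c and Tnfrsf17 (circles) and of the mean of 6 B lymphoid markers (triangles), on the log2(intensity + 16) scale. The receptor mean lay between 6.55 and 7.64 in the knockdown pools and between 8.10 and 8.93 in the wildtype pools, and knockdown pool 3 was lowest for all 3 measures.

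For the ligand BAFF, 2 of 3 probe sets had higher means in the knockdown pools, while the APRIL gene Tnfsf13 was not analysed. Tnfsf13b encodes BAFF, which myeloid and stromal cells make. On 1460255_at, its intensities were 265, 82.2 and 271 in knockdown pools 1, 2 and 3, against 74.2, 15.4 and 41.9 in wildtype pools 1, 2 and 3. Knockdown pool 2 was only slightly above wildtype pool 1, while knockdown pools 1 and 3 were far above every wildtype pool. The difference was 1.94 (SE 0.50) with a 95% interval of 0.78 to 3.09 (limma adjusted p = 0.527), or 3.83 times the wildtype level. Neutrophil markers summed to 40010, 31787 and 38349 in knockdown pools 1, 2 and 3, against 37615, 14484 and 28512 in wildtype pools 1, 2 and 3, with pool 2 lowest within each group. Monocyte, macrophage and dendritic markers were lower instead, with sums of 5668, 7659 and 2981 in knockdown pools, against 10050, 7267 and 7793 in wildtype pools. Knockdown pool 2 had the highest of these sums within its group. Stromal and endothelial markers summed to 1136, 273 and 990 in knockdown pools, against 624, 293 and 1867 in wildtype pools, with pool 2 lowest within each group. The part of these cells in the Tnfsf13b values was not tested.

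The other Tnfsf13b probe sets had smaller differences. On 1445251_at, which has the highest mean log2 value and stands for the gene in the counts above, intensities were 90.2, 106 and 111 in knockdown pools, against 87.7, 96.9 and 100.3 in wildtype pools, and the difference was 0.17 (SE 0.13). Knockdown pool 1 was below wildtype pools 2 and 3 here, and after normalisation only 6.835 in knockdown pool 1 against 6.831 in wildtype pool 3 kept the groups apart. The probe set 1458047_at gave a weak signal, at 16.8, 5.52 and 11.7 in knockdown pools, against 18.5, 11.5 and 14.2 in wildtype pools, with a difference of -0.17 (SE 0.19) that reached 0.0015 without knockdown pool 2. By mean deposited intensity, 1460255_at would stand for the gene in place of 1445251_at, and Tnfsf13b was the 1 member for which that choice mattered. Which parts of the transcript the 3 probe sets cover is not given in the files. The 2 probe sets of the antisense RNA Tnfsf13os differed in opposite directions, by 0.53 (SE 0.27) on 1445227_at and -1.07 (SE 0.40) on 1442123_at.

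Among the genes of TNF and the lymphotoxins, 1 ligand and 1 receptor had an unadjusted limma p under 0.05, both with lower values in the knockdown pools. Ltb, which encodes lymphotoxin beta, the membrane anchor of the lymphotoxin heterotrimer needed to form lymph nodes, had intensities of 803, 965 and 988 in knockdown pools 1, 2 and 3, against 1113, 2472 and 1553 in wildtype pools 1, 2 and 3. The knockdown pools were close together, and the wildtype pools were spread widely with pool 2 on top. The difference was -0.78 (SE 0.27, 95% interval -1.40 to -0.16, limma adjusted p = 0.639), and without wildtype pool 2 it was -0.49. Its unadjusted limma p was 0.0201, and 0.0527 without knockdown pool 1. Wildtype pool 2 also had the highest summed intensity of the stem and progenitor markers, 12368, beside 6222 and 6740 in wildtype pools 1 and 3 and 6582 to 7838 in knockdown pools. It had the lowest sum of T and NK markers as well, 1548, beside 3163 to 5083 in the other arrays. Most of that sum came from Nkg7, at 982 in wildtype pool 2 and 2193 to 3785 in the other arrays. Neutrophil and erythroid sums were also lowest in wildtype pool 2, at 14484 and 711. The part of these differences between pools in the Ltb result was not tested.

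Tnfrsf1a, the death domain receptor through which soluble TNF acts in most cells, had intensities of 986, 1032 and 1136 in knockdown pools, against 1468, 1399 and 1302 in wildtype pools. Both groups were tight, with SDs of 0.0690 and 0.0710 on the log2 scale, and did not overlap. The difference was small, -0.35 (SE 0.13), or 0.787 of the wildtype level (limma adjusted p = 0.675). Leaving out 1 pool at a time gave -0.37 to -0.30, but its unadjusted limma p was under 0.05 in 13 of 18 alternatives and not without knockdown pool 2 or 3 or wildtype pool 1 or 3, nor with the replicate block.

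Tnfrsf1b, the TNF receptor without a death domain, had intensities of 599.6, 533 and 706 in knockdown pools, against 529, 586 and 537 in wildtype pools. Its groups overlapped and the difference was 0.22 (SE 0.16). Tnf itself had intensities of 103, 136 and 135 in knockdown pools, against 132, 134 and 91.5 in wildtype pools, and 5 of the 6 arrays lay between 103 and 136. Its difference was 0.15 (SE 0.18), and 0.0028 without wildtype pool 3. Ltbr, the receptor for the Ltb heterotrimer, had nearly equal values of 311, 264 and 275 in knockdown pools, against 298, 301 and 281 in wildtype pools, with a difference of 0.036 (SE 0.15) that turned to -0.049 with the values as deposited. Lta, the soluble partner of Ltb, gave a weak signal of 6.27 to 24.2 in knockdown pools, against 9.77 to 32.1 in wildtype pools. Tnfrsf14, the receptor that binds LIGHT and the inhibitory receptor BTLA, had intensities of 242, 172 and 202 in knockdown pools, against 298, 100.3 and 156 in wildtype pools. The wildtype pools enclosed all knockdown pools, and the difference was 0.33 (SE 0.35). Tnfsf14, which encodes LIGHT, had intensities of 189, 136 and 176 in knockdown pools, against 135, 227 and 120.2 in wildtype pools, of which pool 2 was highest of all arrays. Its difference was 0.18 (SE 0.24), 0.034 without wildtype pool 3 and 0.41 without wildtype pool 2.

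**Figure D4:**
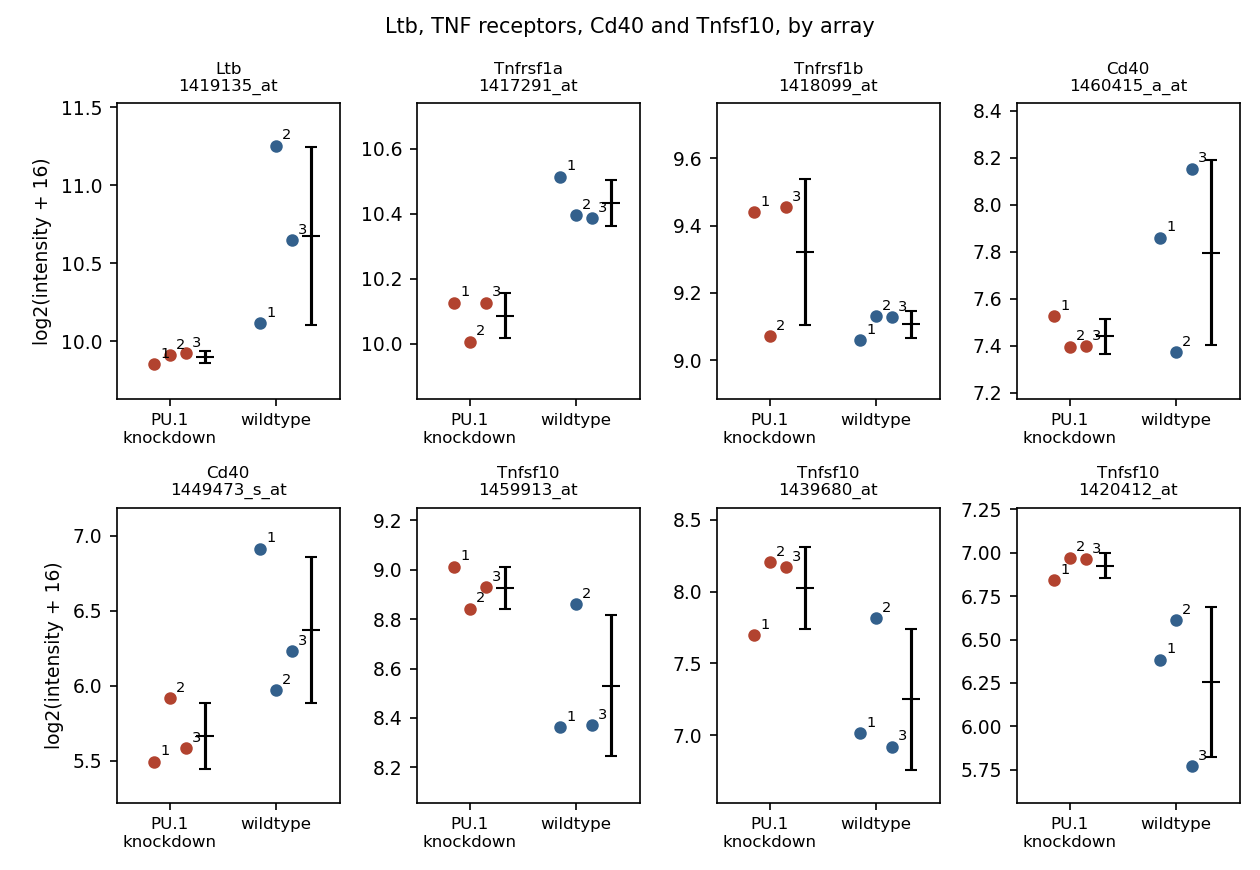
Signal of Ltb, Tnfrsf1a, Tnfrsf1b, 2 probe sets of Cd40 and 3 of Tnfsf10 on the log2(intensity + 16) scale after quantile normalisation, with each array as a point numbered by its pool and the mean ± SD of 3 pools as a black bar; each panel has its own scale. Ltb and Tnfrsf1a were lower in all knockdown pools, and Tnfsf10 had higher means on all 3 of its probe sets.

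Of the 7 death ligand and receptor genes, 5 were higher on average and 2 lower in the knockdown pools, and 0 had an unadjusted p under 0.05 on the probe set that stands for the gene. Tnfsf10 encodes TRAIL, which kills sensitive cells through death receptors and is induced by interferon. On 1459913_at, the probe set that stands for it, intensities were 441, 451 and 485 in knockdown pools 1, 2 and 3, against 319, 482 and 315 in wildtype pools 1, 2 and 3. Wildtype pool 2 lay among the knockdown pools, and the other wildtype pools lay below them. The difference was 0.40 (SE 0.18, limma adjusted p = 0.711).

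Both other Tnfsf10 probe sets had the same direction and larger differences. On 1439680_at intensities were 173, 280.0 and 276 in knockdown pools, against 116, 225 and 107 in wildtype pools, a difference of 0.78 (SE 0.27, limma adjusted p = 0.639). On 1420412_at they were 90.7, 106 and 110.2 in knockdown pools, against 69.3, 85.0 and 40.3 in wildtype pools, a difference of 0.67 (SE 0.22, limma adjusted p = 0.610), and 0.43 without wildtype pool 3. The groups did not overlap on 1420412_at, as was so with higher knockdown values for 7.59% of all probe sets. The mean over the 3 probe sets differed by 0.61.

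The mouse receptors for TRAIL had means near or under the median of all probe sets. Tnfrsf10b, the death receptor that binds TRAIL in mice, had intensities of 25.8 to 42.1 in knockdown pools, against 26.7 to 34.4 in wildtype pools, and its 2 probe sets differed in opposite directions. Tnfrsf22 and Tnfrsf23 are neighbouring decoy receptor genes of the mouse without a death domain, so similar in sequence that signal may be shared between their probe sets. Tnfrsf22 had intensities of 86.6, 87.0 and 98.9 in knockdown pools, against 91.0, 72.1 and 83.1 in wildtype pools, a difference of 0.20 (SE 0.14). Its groups did not overlap after normalisation, while the deposited values of knockdown pools 1 and 2 lay below wildtype pool 1. The other Tnfrsf22 probe sets differed by 0.29 (SE 0.17) and 0.024 (SE 0.28), and Tnfrsf23 differed by 0.11 (SE 0.16).

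Tnfrsf21, a death domain receptor best known from neurons and T cells, had intensities of 455, 467 and 613 in knockdown pools, against 608, 612 and 520.1 in wildtype pools, on 1450731_s_at. The difference was -0.11 (SE 0.15) there and 0.16 (SE 0.15) on 1422740_at, so its direction is not settled. Tnfrsf25, a death domain receptor of T cells, differed by 0.0027 (SE 0.15). Fasl, the ligand of Fas on cytotoxic lymphocytes, gave a weak signal of 16.9 to 39.5 in knockdown pools, against 30.4 to 43.4 in wildtype pools. Fas, which the symbol rule does not take, had intensities of 36.4, 21.5 and 33.8 in knockdown pools, against 34.3, 14.4 and 12.7 in wildtype pools, a difference of 0.41 (SE 0.25) with overlapping groups.

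None of the 11 costimulatory ligand and receptor genes had an unadjusted limma p under 0.05 on the probe set that stands for the gene, and 7 of them had lower means in the knockdown pools. Cd40, the receptor by which B cells and antigen presenting cells receive T cell help, had intensities of 153, 149 and 156 in knockdown pools 1, 2 and 3, against 221, 160.0 and 269 in wildtype pools 1, 2 and 3, on the probe set that stands for it. The knockdown pools were within a narrow range, wildtype pool 2 lay close to them, and wildtype pools 1 and 3 lay higher. The difference was -0.35 (SE 0.21, limma adjusted p = 0.776), and -0.18 without wildtype pool 3.

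Its other probe sets shared this direction. On 1449473_s_at intensities were 27.8, 42.9 and 32.1 in knockdown pools, against 107, 47.2 and 61.0 in wildtype pools, with no overlap, as was so with lower knockdown values for 5.26% of all probe sets. The difference was -0.71 (SE 0.25, limma adjusted p = 0.655), and -0.43 without wildtype pool 1. On 1439221_s_at it was -0.53 (SE 0.29), and -0.23 without wildtype pool 1. Monocyte, macrophage and dendritic markers, cells that carry CD40 beside B cells, were lower in 9 of 9 cases, beside 46.6% of all genes. The unadjusted limma p was under 0.05 for 2 of the 9, and Csf1r differed by only -0.0045 (SE 0.20). Irf8 was higher in knockdown pool 2 (1488) than in the wildtype pools (1012 to 1167). Summed intensities of the list were 2981 to 7659 in knockdown pools, against 7267 to 10050 in wildtype pools, and 0 of the markers were at the floor in all arrays. The part of these cells in the Cd40 values was not tested. Cd40lg, the ligand on activated T cells, gave a weak signal of 24.8 to 56.5 in knockdown pools, against 36.2 to 53.0 in wildtype pools.

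Cd27, a costimulatory receptor that is also found on early haematopoietic progenitors, had intensities of 692, 637 and 462 in knockdown pools, against 561, 1179.8 and 525 in wildtype pools. Wildtype pool 2 was far above the other arrays, and the difference of -0.19 (SE 0.32) turned to 0.16 without it and to 0.022 without knockdown pool 3. Tnfrsf18, a receptor of regulatory T cells, had intensities of 454, 554 and 769.9 in knockdown pools, against 311, 855 and 404 in wildtype pools, and again wildtype pool 2 was highest. Its difference was 0.35 (SE 0.33), 0.73 without that pool and 0.061 without wildtype pool 1. Cd70, the ligand of Cd27, gave a weak signal of 17.6 to 19.9 in knockdown pools, against 12.1 to 21.5 in wildtype pools.

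The remaining costimulatory genes had groups that overlapped as well. Tnfsf4, which encodes the ligand of Tnfrsf4 on antigen presenting cells, had intensities of 184, 116 and 127 in knockdown pools, against 174, 183 and 183 in wildtype pools. Knockdown pools 2 and 3 were low and knockdown pool 1 was close to the wildtype pools, for a difference of -0.23 (SE 0.21), -0.46 without knockdown pool 1 and -0.11 without knockdown pool 2. Tnfrsf4 and Tnfrsf9 encode receptors that sustain activated T cells. Tnfrsf4 had intensities of 148, 190.3 and 166 in knockdown pools, against 159.7, 189 and 219 in wildtype pools, a difference of -0.066 (SE 0.17). Tnfrsf9 had 178, 188 and 180.4 in knockdown pools, against 185, 175 and 213 in wildtype pools, a difference of 0.032 (SE 0.15). Both had knockdown values within or next to the wildtype range. Tnfrsf8, an activation marker of lymphocytes, differed by 0.28 (SE 0.17) at a low level, and its ligand gene Tnfsf8 by -0.034 (SE 0.16). Tnfsf9, the ligand of Tnfrsf9, differed by -0.054 (SE 0.26), with wildtype pool 2 highest at 129, beside 72.2 and 65.7 in the other wildtype pools.

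The bone remodelling and TWEAK genes had small differences. Tnfrsf11a encodes RANK, the receptor that drives osteoclast formation from myeloid precursors, and had intensities of 141, 127 and 142 in knockdown pools, against 126, 107 and 130.3 in wildtype pools. The deposited values overlapped, since wildtype pool 3 was above knockdown pool 2, and the normalised ones just did not, with a difference of 0.24 (SE 0.15, limma adjusted p = 0.788). On its other probe set, 1430259_at, the groups overlapped and the difference was 0.063 (SE 0.15). Its ligand gene Tnfsf11 gave a weak signal of 9.33 to 44.0 in knockdown pools, against 22.3 to 36.9 in wildtype pools. The 2 probe sets of Tnfsf11 differed in opposite directions, by -0.23 (SE 0.31) and 0.26 (SE 0.20). Tnfrsf11b, the secreted decoy receptor osteoprotegerin, was also weak at 28.4 to 41.0 in knockdown pools, against 32.9 to 40.5 in wildtype pools. Tnfrsf12a, the receptor of TWEAK, which is induced by injury, had intensities of 219.6, 216 and 239 in knockdown pools, against 262, 228 and 297 in wildtype pools, a difference of -0.12 (SE 0.16). On its other probe set, 1418572_x_at, the difference was 0.014 (SE 0.15), so its direction is not settled.

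The 3 neural and ectodermal receptors had 0 genes with an unadjusted p under 0.05. The neurotrophin receptor gene Ngfr had intensities of 119.7, 78.4 and 129.9 in knockdown pools, against 133, 123 and 135 in wildtype pools. Knockdown pool 2 was lowest and the other arrays were close, for a difference of -0.17 (SE 0.19), and over its 3 probe sets by -0.17 to 0.16. Tnfrsf19 differed by 0.18 (SE 0.16), and Eda2r, the receptor of an ectodysplasin isoform, by -0.073 (SE 0.16). Eda, which encodes ectodysplasin, and its receptor gene Edar lie outside the symbol rule and differed by 0.069 (SE 0.15) and 0.0097 (SE 0.16). Relt, a further family receptor outside the rule, had intensities of 403, 383 and 336 in knockdown pools, against 434, 518 and 391 in wildtype pools, a difference of -0.16 (SE 0.17).

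The mean over all arrays exceeded the array-wide median of probe sets for 22 of the 38 genes and did not for 16. It did so for 12009 of all 18186 genes, a larger share. Means were lower for 11 of 24 receptor genes and for 8 of 13 ligand genes in the knockdown pools.

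Downstream of the receptors, the list of TRAF adaptors, ubiquitin ligases, kinases, death signalling and NF-kB genes held 45 names, of which 41 were measured. Of these, 24 were lower on average, or 58.5%, and 17 higher in the knockdown pools, beside 46.6% lower among all genes. The median difference was -0.063, beside 0.018 for all genes. At an unadjusted limma p under 0.05, 1 gene was lower, or 2.44% of the list, and 0 were higher, so the share was below the 7.63% of all genes. Without knockdown pool 2, 4 genes were lower, and without wildtype pool 1 or 3, 2 were. Groups did not overlap for 9 of the 41, or 22.0%, beside 13.8% of all genes. With lower knockdown values these were Nfkbie, Xiap, Nfkbia, Tnip1 and Cyld, or 12.2% of the list, beside 5.39% of all genes. With higher values they were Traf2, Rbck1, Otulin and Rela, or 9.76%, near the 8.42% of all genes. The 1 gene with an unadjusted limma p under 0.05 was Nfkbie, which encodes the NF-kB inhibitor IkB epsilon. It had intensities of 145, 204 and 139 in knockdown pools 1, 2 and 3, against 275, 401 and 276 in wildtype pools 1, 2 and 3, with no overlap and a difference of -0.82 (SE 0.20, limma adjusted p = 0.501).

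The next lower genes of this list were Nfkb2, the subunit processed in the noncanonical pathway that BAFF and lymphotoxin receptors use (-0.50, SE 0.22), the caspase inhibitor gene Xiap (-0.38, SE 0.17) and the NF-kB inhibitor gene Nfkbia (-0.34, SE 0.16). The higher genes of smallest p were the adaptor gene Traf2 (0.40, SE 0.19), Rbck1, a part of the linear ubiquitin ligase (0.30, SE 0.15), Ripk3, a kinase of necroptosis (0.35, SE 0.18), and Otulin, a deubiquitinase of linear chains (0.20, SE 0.16). The smallest limma adjusted p among these 7 was 0.708. Without wildtype pool 1 the differences were 0.21 for Traf2 and 0.21 for Ripk3, and without knockdown pool 1 they were 0.071 for Otulin and -0.25 for Xiap.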

How the data were processed

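Expression was measured on 6 arrays, 3 of PU.1 knockdown and 3 of wildtype HSC, with groups and pool numbers taken from the sample titles. Per the labels' protocols, RNA was amplified in 2 rounds of reverse transcription and in-vitro transcription and labelled with biotin. Such amplification can favour 3' ends and add noise to weak transcripts. The deposited table holds the authors' processed intensity per probe set on a linear scale. The sources used here do not state its software, background correction or scaling. Each array had 264 to 409 values below 0. Anything under 1 was raised to 1 before log2(value + 16), which understates folds of weak probe sets. Array medians then differed by more than 0.1 (6.61 to 6.75), so arrays were quantile normalised.

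The groups were compared two-sided with moderated linear models (limma 3.58.1, R 4.3.3), and p-values of the 44991 probe sets were adjusted together by Benjamini-Hochberg, with 0.05 as the threshold. Names came from the platform annotation, in which 34921 probe sets had 1 symbol. All 38 member symbols matched RefSeq. A gene was represented by its probe set of highest mean log2 value. Values in every array were given for members with an unadjusted p under 0.05 or groups that did not overlap, for their ligand or receptor partners, and then for members with a mean above the median, other members being given by ranges, and of the signalling list the 4 genes of smallest p in each direction were named. The members and gene lists were chosen with earlier results of these data known. The fit was tested on simulated data. The number of arrays limits the precision. Alternatives were other scalings, pseudocounts and filters, other variance estimates, array weights, the replicate block, other ways to represent a gene, and leaving out each pool. Promoter windows were searched in Python 3.11.15, and figures were drawn with matplotlib 3.10.9.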

Additional observations from a re-analysis of the deposited data

How the results depend on the processing

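Of the 38 genes, 20 kept their direction under each alternative run for them (at most 18), among them Tnfrsf13c (-2.07 to -1.17), Tnfrsf13b (-1.52 to -0.84), Tnfrsf17 (-1.45 to -0.80), Ltb (-1.06 to -0.49) and Tnfrsf1a (-0.40 to -0.30), and 0 passed the adjusted threshold in any of them. The count of members lower at an unadjusted p under 0.05 was 4 to 6. The count higher, 0 in the report, was 1 with a pseudocount of 64 or above the 60th percentile of means, 2 with array weights or the mean of all probe sets of a gene, and 1 with the probe set of highest deposited intensity (Tnfsf13b), a choice made after seeing the data; leaving out 1 pool gave 0 to 2, with 2 without wildtype pool 2 and 1 without knockdown pool 1 or wildtype pool 1. Above the 60th percentile 17 members remained, 10 of them lower, with a median difference of -0.11. Over all probe sets, leaving out 1 pool gave 0 to 2 calls, with 2 without wildtype pool 2 and 1 without knockdown pool 2 or wildtype pool 1 or 3. Of the signalling list, 2 genes were lower at p under 0.05 with the values as deposited, 5 with a pseudocount of 64, 2 with an eBayes trend, 3 with the replicate block and 2 with the mean of all probe sets, and 1 was higher with a pseudocount of 64, an eBayes trend or the mean of all probe sets; leaving out 1 pool gave 1 to 4 lower, the 4 without knockdown pool 2, and 0 to 1 higher, the 1 without knockdown pool 3. Deviations from the group means of same-numbered pools correlated at 0.18, 0.061 and -0.039. Knockdown pools 1 and 2 correlated best with the wildtype pool of their own number, and knockdown pool 3 with wildtype pool 2 (0.15). With 3 pools per group these values cannot settle whether the pool numbers pair the groups. With the replicate block, 0 members were higher and 4 lower at an unadjusted p under 0.05, and no call past the adjusted threshold changed. The cause of these changes was not tested.

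The other 18 genes had differences that changed sign somewhere. With the values as deposited these were Ltbr (-0.049), Tnfrsf11b (-0.018), Tnfrsf25 (-0.072) and Tnfrsf9 (-0.057). With array weights they were Ltbr (-0.0097), Tnfrsf9 (-0.020) and Tnfsf9 (0.0028). With the mean of all probe sets they were Fasl (0.028), Tnfrsf10b (-0.019), Tnfrsf21 (0.025), Tnfsf11 (0.016) and Tnfsf13os (-0.27). With 1 pool left out, differences ran from -0.37 to 0.16 for Cd27, -0.33 to 0.059 for Cd40lg, -0.18 to 0.023 for Eda2r, -0.31 to 0.090 for Fasl, -0.54 to 0.0045 for Lta, -0.083 to 0.10 for Ltbr, -0.27 to 0.032 for Ngfr, -0.038 to 0.12 for Tnfrsf11b, -0.012 to 0.72 for Tnfrsf14, -0.067 to 0.068 for Tnfrsf25, -0.17 to 0.057 for Tnfrsf4, -0.050 to 0.13 for Tnfrsf9, -0.55 to 0.072 for Tnfsf11, -0.14 to 0.062 for Tnfsf8 and -0.20 to 0.19 for Tnfsf9, and that of the Tnfsf13b probe set 1458047_at turned to 0.0015. With 1 pool left out, members that kept their sign also moved by over 1.5 times with ranges of -0.57 to -0.18 for Cd40, 0.025 to 0.25 for Cd70, 0.15 to 0.30 for Tnfrsf11a, -0.24 to -0.011 for Tnfrsf12a, 0.071 to 0.31 for Tnfrsf19, 0.15 to 0.34 for Tnfrsf1b, 0.12 to 0.26 for Tnfrsf22, 0.019 to 0.20 for Tnfrsf23 and 0.14 to 0.38 for Tnfrsf8. Such ranges were also -1.06 to -0.49 for Ltb, -1.52 to -0.84 for Tnfrsf13b and 0.061 to 0.73 for Tnfrsf18. They were -0.46 to -0.11 for Tnfsf4, 0.0028 to 0.23 for Tnf and 0.034 to 0.41 for Tnfsf14. For Tnfrsf10b, Tnfrsf21 and Tnfsf13os they were 0.010 to 0.27, -0.21 to -0.021 and 0.21 to 0.78.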
